A study of Mus musculus with 8 samples.

Results

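This account covers 10 genes that make, remodel or take up high-density lipoprotein (HDL) in mouse liver: Apoa1, Apoa2, Apom, Abca1, Abcg1, Lcat, Pltp, Lipc, Lipg and Scarb1. They were chosen by name out of 24972 genes in the deposited normalized counts, and all 10 passed the filter on low values. The study gave C57BL/6J mice, 10 weeks old, a single kind of adeno-associated virus (AAV8) into a vein and took total RNA from the liver 8 weeks later, at an age of 18 weeks. The virus was labelled AAV8-ALB-ATF3 (ATF3 group) or AAV8-ALB-Null (Null group, the control), so both groups carried an AAV8 vector, and ALB in both names is taken here as the albumin promoter, which is active in hepatocytes. Each group has 4 libraries, although its stated size was 8 mice. Whether a library stands for 1 mouse is not recorded, and the p-values therefore describe the spread among libraries, which may be partly technical. ATF3 is a stress-induced transcription factor, and the published study of these mice is known for asking how hepatocyte ATF3 acts on HDL, with SR-BI as one route. The values of that publication were not used here. The data here are liver RNA and hold no measure of SR-BI protein or of plasma HDL.

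HDL begins when the liver and intestine secrete apolipoprotein A-I (Apoa1) and the transporter ABCA1 loads it with phospholipid and cholesterol. LCAT then esterifies the cholesterol and fills the particle. Phospholipid transfer protein (Pltp), hepatic lipase (Lipc) and endothelial lipase (Lipg) reshape it in plasma, and SR-BI (Scarb1) on hepatocytes takes up its cholesteryl ester without taking in the whole particle. Mice lack plasma cholesteryl ester transfer protein, so most of their plasma cholesterol travels in HDL.

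The libraries carried what the labels say, with exceptions in the Null group. Library totals of normalized counts ran from 26.2 M to 28.4 M in Null and from 23.9 M to 25.9 M in ATF3. Every ATF3 total thus lay below every Null total. Atf3 held 20.3 to 24.5 normalized counts in Null and 5611 to 7053 in ATF3, where delivered and endogenous transcripts cannot be separated. All 10 hepatocyte markers were detected, and their sum ran from 2779510 to 4189590 in Null and from 3631520 to 4317270 in ATF3. Much of that sum was Alb, the albumin gene, at 1260330 to 2225060 in Null and 2189590 to 2582250 in ATF3. Among the 10, limma called 2 higher (Ttr and Tat) and 1 lower (Cps1) in ATF3, beside 11.4% and 9.82% of all genes. Exocrine pancreas transcripts (Cela1, Cpa1, Pnlip and Cel) summed to 82635 in Null 1, against 290 to 1075 in Null 2 to 4 and 128 to 219 in ATF3. Null 4 received the lowest of the library weights, 0.228 against 0.597 to 2.41 in the other libraries. Results below are therefore also given without Null 1 or Null 4 where that changed them. Across all 13301 genes tested with limma, 1513 were higher and 1306 lower in ATF3 at an adjusted p under 0.05, together 21.2% of genes (11.4% higher and 9.82% lower). Scaling to equal column sums gave 2472 and 837 instead and moved the median log2 difference of all genes from 0.00681 to 0.13, while the deposited TPM gave 440 and 76 and moved it to 0.68. Without ATF3 3, 851 genes were lower.

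Of the 10 HDL genes, Lipg rose and Apom and Apoa1 fell. The other 7 did not pass the test, Scarb1 among them. The 1 member that rose and the 2 that fell stand beside 11.4% and 9.82% of all genes, and the share of 3 in 10 is near the 21.2% called in either direction. No result about the 10 genes as a set is read from it, and the groups did not overlap for the same 3 genes, beside 26.3% of all genes tested (13.7% above and 12.6% below). The median log2 difference of the 10 was -0.02, against 0.00681 for all genes. Without Null 4, 5 of the 10 passed (Apoa1, Apom and Abca1 lower, Lipc and Lipg higher), beside 28.4% of all genes. Without Null 1, 2 passed (Apom and Lipg), beside 17.2%. With both left out, 4 passed (Apom, Abca1, Lipc and Lipg), beside 20.8%.

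**Figure D1:**
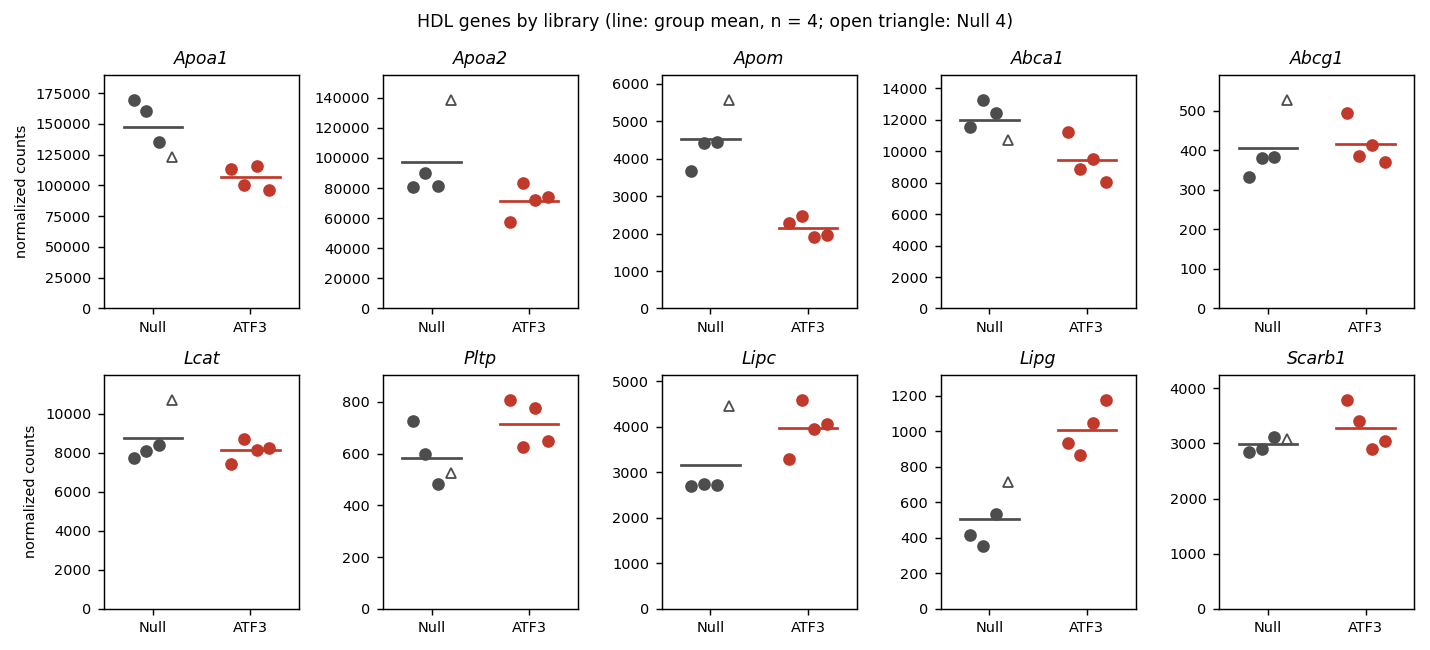
Normalized counts (y axis, from 0) of the 10 HDL genes in each library, by group (x axis), with the group mean as a line and Null 4 as an open triangle. Apoa1 and Apom lay lower and Lipg higher in all 4 ATF3 libraries than in any Null library, and Null 4 was the highest Null library for Apoa2, Apom, Abcg1, Lcat, Lipc and Lipg.

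Scarb1, the receptor for selective uptake of HDL cholesteryl ester, differed little between the groups. Null 1 to 4 held 2836, 2906, 3111 and 3086 normalized counts, and ATF3 1 to 4 held 3789, 3401, 2906 and 3040. ATF3 1 and ATF3 2 lay above every Null library, and ATF3 3 and ATF3 4 lay inside the Null range. The log2 difference, on the scale of log2(normalized count + 1) used throughout, was 0.13 (SE 0.10, limma adjusted p = 0.394). Its 95% confidence interval ran from -0.09 to 0.35, or from 0.939-fold to 1.28-fold. A rise above 1.28-fold lies outside this interval, which holds only for the deposited scaling and all 8 libraries. A smaller rise or a small fall lies inside it. The difference stayed positive and short of the threshold in each alternative run, with adjusted p from 0.116 with equal column sums to 0.703 without ATF3 1, where the log2 difference was 0.06. With equal column sums it was 0.26 (SE 0.11), or 0.13 above the median of all genes under that scaling. The deposited TPM without rescaling gave 1.09 (SE 0.77, limma adjusted p = 0.387), or 0.41 above the shifted median of 0.68 in that run. Without ATF3 3 the difference in normalized counts was 0.19 (SE 0.11), so the bound of 1.28-fold is not fixed across these runs. The Null libraries were close to each other for this gene, with a coefficient of variation of 4.52% against 12.1% in ATF3. Scarb1 spans 125277087 to 125341094 on the minus strand of chromosome 5 in mm10, and 0.742% of the 31-base stretches of its transcripts occur in transcripts of other genes, so its counts are little shared.

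Apom and Apoa1, which encode apolipoproteins of HDL, were lower in ATF3. Apolipoprotein M is a lipocalin that keeps its signal peptide as an anchor in the particle and carries sphingosine-1-phosphate. Apom held 3674, 4432, 4446 and 5583 normalized counts across Null 1 to 4, against 2286, 2470.2, 1911 and 1971 across ATF3 1 to 4. The highest ATF3 library lay well below the lowest Null library. Apom fell by 1.06 on the log2 scale (SE 0.14, limma adjusted p = 0.000418), or 2.09-fold, and its call held without each library in turn, with differences from -1.16 to -0.96. Apoa1 encodes the main protein of HDL and the cofactor of LCAT. It held 169768, 160666, 135657 and 122753 across Null 1 to 4, against 113377, 100492, 116128 and 96567 across ATF3 1 to 4. The groups did not overlap, with ATF3 3 and Null 4 the nearest to each other. Apoa1 fell by 0.46 (SE 0.15, limma adjusted p = 0.0494), whereas the deposited TPM, whose median gene was shifted by 0.68, gave 0.55. This call stood at the edge of the threshold: it was lost without any 1 library other than Null 4 (adjusted p from 0.0613 to 0.134), was lost without Null 1 and Null 4 together (adjusted p = 0.0751), and without Null 4 it stood at -0.54 (adjusted p = 0.0189).

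Apoa2, the next most abundant protein of HDL, did not pass. It held 80373, 90095, 81116 and 138768 normalized counts across Null 1 to 4, against 57227, 83152, 71837 and 74069.9 across ATF3 1 to 4. Null 4 stood far above the other Null libraries, and ATF3 2 lay inside the range of Null 1 to 3. The log2 difference was -0.42 (SE 0.20, limma adjusted p = 0.159), and it was -0.24 without Null 4.

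Promoter sequence was at hand from RefSeq (build GRCm38.p6, 250 bases before to 50 after each start) for 7 of the 10 genes, in 9 windows. Scarb1 and Abcg1 were among the genes without a window, so their promoters were not searched. The motifs searched on both strands were the cAMP response element that ATF3 dimers are known to bind (TGACGTCA), its core TGACG, the AP-1 motif (TGANTCA), and the nuclear receptor core motifs AGGTCA and GGGTCA. The core TGACG lies within TGACGTCA, and the other motifs are distinct. TGACGTCA and TGANTCA matched 0 of the 9 windows, beside 1.79% and 7.81% of 32851 windows of that length. TGACG matched 1 window, at Apoa2, beside 20.8%. AGGTCA matched 2 windows (Apoa2 and Lipc) beside 16.3%, and GGGTCA matched 2 (Lipc and Apom) beside 13.7%. The stretches before Apoa1, Apoa2 and Apom are shown because these 3 genes encode the HDL apolipoproteins: Apom and Apoa1 fell, and Apoa2 holds the TGACG match. Matched letters are in capitals and the rest in lower case, 5′ to 3′ on the strand of the gene, and the Apoa1 stretch holds no match. Coordinates are chr9:46228380-46228579 (plus strand) for Apoa1, chr1:171224804-171225053 (plus strand) for Apoa2 and chr17:35131816-35131845 (minus strand) for Apom. The Apom stretch lies before the RefSeq start, inside what GENCODE annotates as the first exon, and the other stretches end before the first GENCODE exon.
Apoa1: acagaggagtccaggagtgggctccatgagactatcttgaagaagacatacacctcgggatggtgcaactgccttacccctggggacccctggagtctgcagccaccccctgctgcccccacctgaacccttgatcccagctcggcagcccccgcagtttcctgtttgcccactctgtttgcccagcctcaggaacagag
Apoa2: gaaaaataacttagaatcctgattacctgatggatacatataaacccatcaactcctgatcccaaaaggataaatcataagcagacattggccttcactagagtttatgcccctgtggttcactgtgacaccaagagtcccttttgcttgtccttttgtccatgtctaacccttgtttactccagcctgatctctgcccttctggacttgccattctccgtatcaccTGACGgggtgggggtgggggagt
Apom: tagcaggttaaaGGGTCAagggtcgaggcg
The capitals begin 23 bases before the RefSeq start at Apoa2 and 32 before it at Apom, where another GGGTCA lies 156 before the start, outside the stretch shown. A match is a description of letters, and no binding was measured.

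The transporter genes that lipidate HDL did not pass the test. Abca1, which loads lipid onto apolipoprotein A-I, held 11518, 13289, 12461 and 10699 normalized counts across Null 1 to 4, against 11228, 8899, 9487 and 8042 across ATF3 1 to 4. ATF3 1 lay inside the Null range and the other ATF3 libraries lay below it. The log2 difference was -0.36 (SE 0.12, limma adjusted p = 0.0611). It passed without Null 4 (-0.41, adjusted p = 0.027), without ATF3 1 (-0.44, adjusted p = 0.0232) and without Null 1 and Null 4 together (-0.46, adjusted p = 0.0384). Abcg1, which sends cholesterol to HDL that already carries lipid and is high in macrophages, held 333, 379, 381 and 528 across Null 1 to 4, against 493, 386, 413 and 370.1 across ATF3 1 to 4. The groups overlapped almost fully, with a log2 difference of 0.05 (SE 0.15, limma adjusted p = 0.858) and a 95% confidence interval from -0.29 to 0.39. Its sign turned without Null 1 or ATF3 1 (-0.04 in both). The 10 Kupffer cell and macrophage markers summed to between 10123 and 15152 in Null and between 11706 and 16638 in ATF3; limma called 0 of the 10, and 0 had an unadjusted p under 0.05. In Null, the library with the highest macrophage sum, Null 4, also had the highest Abcg1, and ATF3 1 led both in ATF3. Null 4 also had the highest hepatocyte marker sum in Null (4189590), whereas ATF3 1 had the lowest in ATF3 (3631520). The part of macrophages in the Abcg1 level was not tested, and in bulk RNA fewer cells of a type and less RNA per cell cannot be told apart.

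Of the genes that act on HDL in plasma, Lipg changed. Lipg encodes endothelial lipase, a phospholipase that acts on HDL. It held 417, 351, 535 and 716 normalized counts across Null 1 to 4, against 932, 864, 1048 and 1177 across ATF3 1 to 4. All ATF3 libraries lay above all Null libraries, with Null 4 the nearest. Lipg rose by 1.04 on the log2 scale (SE 0.20, limma adjusted p = 0.00499) or 2.05-fold, and its 95% confidence interval on the log2 scale ran from 0.59 to 1.48. The call held without each library in turn (0.88 to 1.22). The 10 liver endothelial markers summed to between 18365 and 20832 in Null and between 17424 and 18250 in ATF3. The 1 endothelial marker called was Ptprb, at -0.28 (limma adjusted p = 0.0468), and the median log2 difference of the 10 was -0.05. The part of these cells in the Lipg level was not tested.

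Lipc encodes hepatic lipase, which hydrolyses triglyceride and phospholipid of HDL and remnants. It held 2686, 2745, 2713 and 4450.2 normalized counts across Null 1 to 4, against 3298, 4588, 3942 and 4060.2 across ATF3 1 to 4. Null 1 to 3 lay close together and below every ATF3 library, whereas Null 4 lay above ATF3 1, ATF3 3 and ATF3 4. The log2 difference was 0.36 (SE 0.17, limma adjusted p = 0.17). It passed without Null 4 (0.54, adjusted p = 0.00447), without Null 1 and Null 4 together (0.53, adjusted p = 0.0166) and with equal column sums (0.49, adjusted p = 0.0429).

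Lcat and Pltp did not pass. Lcat, the plasma cholesterol-esterifying enzyme, held 7744, 8088, 8408 and 10705 across Null 1 to 4, against 7431, 8691, 8124 and 8226 across ATF3 1 to 4, a log2 difference of -0.10 (SE 0.11, limma adjusted p = 0.603). It was 0.01 without Null 4 and 0.03 with equal column sums, so its sign is not fixed by these data. Pltp, whose product moves phospholipid onto HDL, held 728, 597, 484 and 523 across Null 1 to 4, against 808, 627, 777 and 648 across ATF3 1 to 4. Null 1 lay inside the ATF3 range and the other Null libraries below it. The log2 difference of Pltp was 0.30 (SE 0.14, limma adjusted p = 0.169). It was 0.41 without Null 1 (adjusted p = 0.0562), 0.43 with equal column sums (adjusted p = 0.0598) and 0.22 without Null 3 (adjusted p = 0.36).

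**Figure D2:**
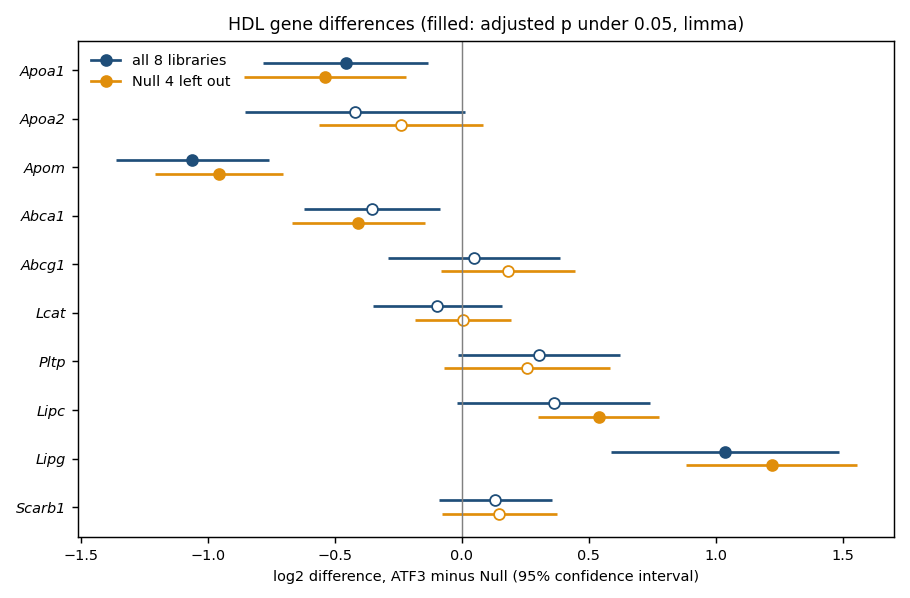
Log2 difference between ATF3 and Null (x axis) with its 95% confidence interval for the 10 HDL genes, over all 8 libraries and with Null 4 left out. Filled points passed an adjusted p under 0.05; Abca1 and Lipc are filled with Null 4 left out and open with all libraries, while the interval of Scarb1 spans 0 in both.

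Levels per length were compared inside each library, from the deposited TPM as a percentage of the Apoa1 TPM of the same library. Apoa2 stood first and Apoa1 next in all 8 libraries, with Apoa2 at 165% to 394% of Apoa1 in Null and 176% to 288% in ATF3. Null 4 held the 394%. Apom stood at 3.50% to 7.35% of Apoa1 in Null and 2.66% to 3.97% in ATF3, and Lcat at 3.07% to 5.87% and 4.41% to 5.82%. Apom exceeded Lcat in each of the 4 Null libraries and Lcat exceeded Apom in each of the 4 ATF3 libraries. Lipc followed at 0.769% to 1.76% in Null and 1.41% to 2.22% in ATF3. Scarb1 (0.561% to 0.844% in Null, 0.840% to 1.14% in ATF3) and Abca1 (0.555% to 0.751% and 0.668% to 0.809%) lay next, and their order turned in Null 2. Pltp, Lipg and Abcg1 closed the order in all 8 libraries, with Abcg1 at no more than 0.0599%.

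Ratios of normalized counts inside a library do not depend on the scaling between libraries, though they do depend on the gene chosen as denominator, and 3 were compared by an exact two-sided permutation test over 70 assignments. Its smallest possible p is 0.0286. Scarb1 counts were 1.67% to 2.51% of Apoa1 counts in Null and 2.50% to 3.38% in ATF3, so the groups touched at 1 library each. The log2 ratio was 0.59 higher in ATF3 (exact permutation p = 0.0571, 0.0857 adjusted over the 3 ratios), but the direction turned with Alb, the albumin gene, in place of Apoa1 as denominator (-0.38, exact permutation p = 0.0571, adjusted 0.0857). The log2 difference was 0.13 for Scarb1 itself, -0.46 for Apoa1 and 0.51 for Alb, which did not pass (limma adjusted p = 0.178). Apom counts were 2.16% to 4.55% of Apoa1 counts in Null and 1.65% to 2.46% in ATF3, a ratio of 0.658 between the groups (exact permutation p = 0.0571, adjusted 0.0857). Leaving out 1 library at a time moved this log2 ratio from -0.77 without Null 1 (exact permutation p = 0.0286, adjusted 0.0857) to -0.42 without Null 4 (exact permutation p = 0.143, adjusted 0.143). With 1 library left out the test ran over 35 assignments instead of 70. The Lipc to Scarb1 ratio was 1.17-fold higher in ATF3, and its groups overlapped (exact permutation p = 0.486, adjusted 0.486).

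Apoa1 shares a cluster on chromosome 9 with Apoc3, Apoa4 and Apoa5, and these neighbours did not move with it. The 4 genes span 43.3 kb, from 46228580 to 46271919 in mm10. Apoa4, an apolipoprotein of chylomicrons and HDL, held 1890.0, 2021, 1893 and 1866 normalized counts across Null 1 to 4, against 44465, 68789, 99781 and 79925 across ATF3 1 to 4. Apoc3, an inhibitor of triglyceride clearance, held 16055, 21280.4, 17958 and 18329 in Null and 36176, 47138, 47071 and 45379 in ATF3. For both genes the lowest ATF3 library exceeded the highest Null library, the opposite of Apoa1. Apoa4 rose by 5.20 (SE 0.20, limma adjusted p = 1.76e-07) and Apoc3 rose by 1.25 (SE 0.13, limma adjusted p = 8.69e-05). Apoa5, an activator of triglyceride clearance at the far end of the cluster, stood at 0.36 (SE 0.12, limma adjusted p = 0.064), and passed without Null 4 or ATF3 1 (adjusted p from 0.027 to 0.0368).

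**Figure D3:**
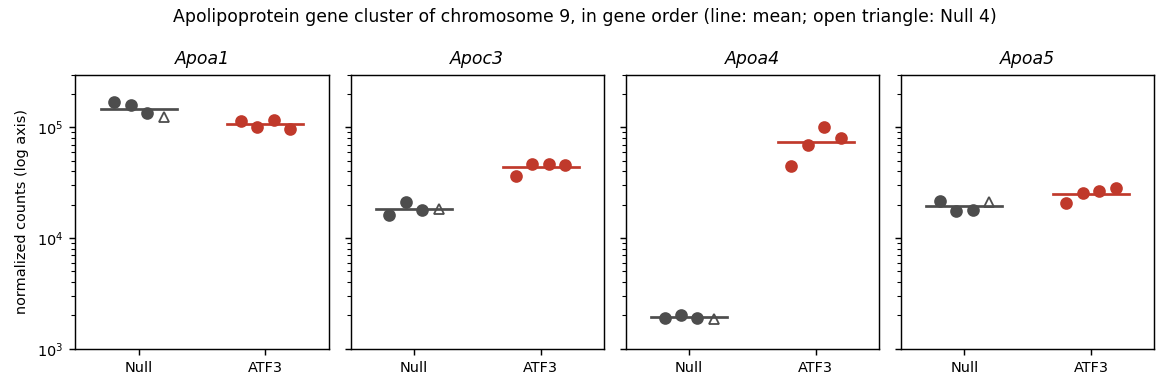
Normalized counts (log axis) of Apoa1, Apoc3, Apoa4 and Apoa5 in each library, in their order along chromosome 9, with group means as lines and Null 4 as an open triangle. Apoc3 and Apoa4 are higher and Apoa1 lower in all 4 ATF3 libraries than in any Null library, and Apoa5 overlaps between the groups.

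Other proteins that ride on HDL moved both ways. Of 19 listed genes, 19 were tested, 4 rose and 2 fell, beside 11.4% and 9.82% of all genes, with a median log2 difference of 0.22 (all genes 0.00681). Besides Apoa4 and Apoc3, the cofactor of lipoprotein lipase Apoc2 rose by 1.02 and Apoh, a phospholipid-binding glycoprotein, rose by 0.75 (limma adjusted p = 0.000764 and 0.00121). The 2 that fell, named after their values were seen, were Gpld1 (-0.48, lost without ATF3 4 at adjusted p = 0.056) and Clu (-0.58, lost without Null 1, Null 2, Null 3, ATF3 1, ATF3 3 or ATF3 4 at adjusted p from 0.0555 to 0.0737). The acute phase genes Saa1 and Saa2, whose products displace apolipoprotein A-I from HDL in inflammation, had differences of -1.70 and -1.77 and did not pass (limma adjusted p = 0.278 and 0.301). Saa1 held 840, 3841, 29785 and 536 across Null 1 to 4, against 575 to 1277 in ATF3, so Null 3 set the Null mean. Without Null 3 the differences were -0.54 for Saa1 and -0.47 for Saa2 (limma adjusted p = 0.574 and 0.619). The count of higher genes was 7 without Null 4 or ATF3 1, and that of lower genes was 1 without Null 1, Null 2, Null 3, ATF3 1 or ATF3 3, 0 without ATF3 4 and 5 with Null 1 and Null 4 both left out.

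Genes listed for SR-BI adaptors and intracellular sterol handling, a list that also holds other receptors such as Cd36, changed in both directions. These directions are not read as more or less support of SR-BI. Of 16 tested, 4 rose and 5 fell, beside 11.4% and 9.82% of all genes, with a median log2 difference of -0.04. Pdzk1 encodes the PDZ adaptor that hepatic SR-BI protein needs, and held between 1306 and 1637 normalized counts in the Null libraries, against 977 to 1266 in the ATF3 libraries. It fell by 0.38 (limma adjusted p = 0.0299), and the call was lost without Null 2, Null 3, ATF3 1, ATF3 2 or ATF3 3 (adjusted p from 0.0645 to 0.0817). Pdzk1ip1, a small membrane protein that binds that adaptor, rose by 1.37 from a low level (at most 45.3 normalized counts in Null, against 74.3 to 149.7 in ATF3). The related PDZ scaffold genes went apart: Slc9a3r1 rose by 0.73 and Slc9a3r2 fell by 0.46 (limma adjusted p = 0.000499 and 0.013). Gramd1c and Gramd1a, which encode Aster proteins that carry cholesterol from the plasma membrane to the endoplasmic reticulum, fell by 0.77 and 0.43, the latter lost without any 1 library other than Null 1 (adjusted p from 0.0505 to 0.124). Npc2, a lysosomal sterol carrier, rose by 0.37. Nceh1, a cholesteryl ester hydrolase, fell by 0.40, and its call was lost without Null 2, Null 3 or ATF3 2 (adjusted p from 0.0513 to 0.0601). Cd36, a scavenger receptor of the SR-BI family, rose by 0.58, and its call was lost without Null 1, Null 2, Null 3, ATF3 2, ATF3 3 or ATF3 4 (adjusted p from 0.0553 to 0.112). Npc1 and Atp5b, the genes with the largest differences among those that did not pass, stood at -0.26 and 0.16, and Npc1 passed without Null 4 (adjusted p = 0.0153). The count of lower genes was 2 without Null 2, Null 3 or ATF3 2 and 3 without ATF3 1 or ATF3 3. Pdzk1, Slc9a3r2, Gramd1a, Nceh1 and Cd36 were named after their values were seen.

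Of 13 genes for lipase maturation, cleavage and inhibition, 1 rose and 3 fell, with a median log2 difference of 0.04. These 4 of 13 stand near the 21.2% of all genes called in either direction, so nothing is read from the count. Pcsk6, a proprotein convertase able to cleave lipases of the Lipg family, fell by 1.93 (SE 0.10, limma adjusted p = 8.21e-07). It held 2617, 2876, 2566 and 3034 normalized counts across Null 1 to 4, against 759, 769, 626 and 754 across ATF3 1 to 4. Its convertase relative Pcsk5 stood at -0.29 (limma adjusted p = 0.0696). Angptl8 fell by 1.23 (limma adjusted p = 0.0108) and was 667 and 876 in Null 4 and Null 1 but 292 in Null 2, with no ATF3 library above 239.97; with Null 1 and Null 4 both left out the fall was 0.70, and the call held (adjusted p = 0.0171). Lpl, the lipoprotein lipase gene, fell by 0.93, and its call was lost without ATF3 3 (adjusted p = 0.0519). Angptl4, an inhibitor of that lipase, rose by 0.79, and its call was lost without Null 1, Null 2, Null 3, ATF3 2, ATF3 3 or ATF3 4 (adjusted p from 0.0523 to 0.0863), which left 0 higher genes in the list. Sel1l, needed for lipase maturation, stood at 0.28 and did not pass.

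Among 26 transcription factor genes known to act on HDL genes, 4 rose and 2 fell, with a median log2 difference of -0.09. These 6 of 26 are close to the 21.2% of all genes called in either direction, so the count is no result about these regulators. Srebf1 rose by 1.30 and the coactivator gene Ppargc1a rose by 0.77, while Pparg fell by 1.04 and Cebpa fell by 0.60 (limma adjusted p = 1.4e-05, 0.000634, 0.00239 and 0.00918). Nr5a2, the LRH-1 gene, rose by 0.30, a call lost without ATF3 3 (adjusted p = 0.0566). Ppara rose by 0.40, a call lost without Null 2, Null 3, ATF3 1, ATF3 3 or ATF3 4 (adjusted p from 0.0537 to 0.0662). Nr5a2 and Ppara were named after their values were seen. The count of higher genes was 2 without ATF3 3, and that of lower genes was 4 without Null 4. Hnf4a, whose product is an activator of many apolipoprotein genes, held 23861, 17451, 18342 and 17836 across Null 1 to 4, against 15440.2, 12557, 16050.3 and 14688 across ATF3 1 to 4. The groups did not overlap for Hnf4a, yet the difference of -0.39 (SE 0.13, limma adjusted p = 0.0529) did not pass, and it passed without Null 4 (adjusted p = 0.0342). Trp53, the p53 gene, stood at 0.19 (SE 0.10, limma adjusted p = 0.182). Nr2f1 and Nr0b2 stood at -1.08 and 0.54 and did not pass (limma adjusted p = 0.057 and 0.207). Nr2f1 passed without Null 4 or ATF3 2 (adjusted p from 0.039 to 0.0439), and Nr0b2 passed without Null 4 (adjusted p = 0.0294).

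Abca1, Abcg1 and Pltp are textbook targets of the oxysterol receptor LXR. Of 12 other LXR targets tested, 4 rose and 2 fell, beside 11.4% and 9.82% of all genes, with a median log2 difference of 0.29. Besides Srebf1, the biliary sterol exporter genes Abcg5 and Abcg8 rose by 1.24 and 0.98, and Cyp7a1, which encodes the first enzyme of the classic bile acid route, rose by 1.83. In the same libraries Abca1, Abcg1 and Pltp stood at -0.36, 0.05 and 0.30 and did not pass. Scd1, which encodes a fatty acid desaturase, was lower by 1.09 (log2 difference -1.09), a call lost without ATF3 1 or ATF3 3 (adjusted p from 0.0525 to 0.0566), and was -0.60 with Null 1 and Null 4 both left out (adjusted p = 0.0816). Without ATF3 3 the list held 0 lower genes, and without ATF3 1 it held 1. Nr1h3, the LXR-alpha gene, stood at 0.42 (limma adjusted p = 0.0594) and passed without Null 4 (0.57, adjusted p = 0.000981). Apoe stood at 0.46 and did not pass (limma adjusted p = 0.0797). Lpl and Scd1 were named here after their values were seen.

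**Figure D4:**
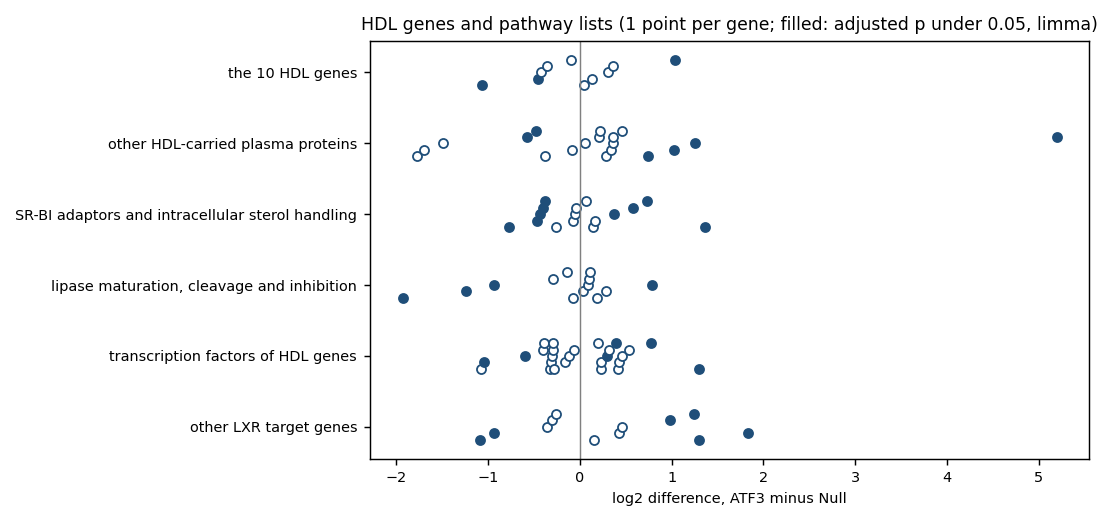
Log2 difference between ATF3 and Null (x axis) for each gene of the 10 HDL genes and of 5 pathway lists (rows), with filled points for genes that passed an adjusted p under 0.05. Filled points lie on both sides of 0 in all 6 rows, vertical offsets only separate the points, and Apoa4 at 5.20 lies farthest right.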

How the data were processed

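Stranded total RNA libraries of mouse liver (4 Null, 4 ATF3) were sequenced and processed by the authors. The submitters' processing notes name Bowtie2 and mm10; the quantifier and its annotation go unnamed there. The authors deposited a signal, estimated counts per gene divided by a scaling factor, which are not whole numbers, and TPM values, in which 26 gene names had turned into dates and were left out. In the deposited TPM, Mir6236 made up 89.4% in Null 1 and 0.308% to 37.0% in the other libraries. This TPM was used between libraries only as an alternative.

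The filter kept genes reaching 10 in 4 or more libraries, and these were compared with limma 3.58.1 (R 4.3.3; trend, two-sided) on log2(value + 1), with Benjamini-Hochberg adjustment over 13301 genes. Adding 1 understates changes of low genes. The limma steps were tested on simulated data. Python 3.11.15 served for tables. The members and lists were chosen with earlier results of these data known. Genes named are the 10 members, Atf3, Trp53, Hnf4a and, per list, up to 4 called genes with the smallest p and the 2 largest differences not called; others are marked. The precision of single libraries is limited by depth, which the scaled values do not give. Gene positions come from GENCODE vM21. The alternatives covered scaling, value added, filter, variance, weights and left-out libraries.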

Additional observations from a re-analysis of the deposited data

Results flagged for a closer look

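In Null 4, Apoa2 stood apart from the rest of its group: it held 138768 normalized counts, and the gap to the next Null library was 0.834 of the group's range, above Dixon's 95% critical value for 4 samples. Lipc in Null 4 stood apart in the same way, with 4450.2 normalized counts and a gap of 0.966 of the range. Both values belong to the same library, and 22 groups of 4 were examined; chance flags about 1 in 20 groups.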

How the results depend on the processing

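Of 200 alternative values for the 10 HDL genes, 169 kept their direction and their side of the threshold, and of 839 for 42 named pathway genes 724 did. The fits without Null 1 and Null 4 together, all alternatives for named pathway genes and the left-out libraries for list counts were chosen after seeing the data. The deposited TPM without rescaling moved the median of all genes to 0.68, and single genes by other amounts; under it the log2 difference turned for Apoa1 (0.55), Apoa2 (0.59), Abca1 (0.61), Lcat (0.90), Cebpa (0.40), Clu (0.43), Gpld1 (0.50), Gramd1a (0.31), Gramd1c (0.12), Hnf4a (0.61), Nceh1 (0.52), Npc1 (0.71), Pcsk5 (0.33), Pdzk1 (0.55) and Slc9a3r2 (0.38), and the calls of Apom (-0.057) and Lipg (1.62) were lost, with 440 genes higher and 76 lower. Of 29 named pathway genes called, TPM without rescaling kept the call of 3 (Apoa4, Cyp7a1 and Pdzk1ip1). Mir6236 made up 89.4% of that TPM in Null 1. TPM rescaled by the median of ratios gave 1533 higher and 1300 lower genes, and Apom (-1.06) and Lipg (0.89) passed. Apoa1 also missed the threshold with TPM rescaled by the median of ratios (-0.46), equal column sums (-0.33), upper quartile scaling (-0.42), 10 added to each value (-0.46), no filter (-0.46) and Null 1 and Null 4 both left out (-0.47). Equal column sums gave 0.032 for Lcat, 0.49 for Lipc, which then passed, and 2472 higher and 837 lower genes. Library weights gave 2271 higher and 2130 lower genes, and Abca1 (-0.49) and Lipc (0.52) passed; without Null 1 and Null 4 they also passed (-0.46 and 0.53), and 5 other HDL-carried genes were lower. The cause of these changes was not tested.

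Leaving out 1 library at a time gave ranges of -0.54 to -0.38 for Apoa1, -0.44 to -0.28 for Abca1, -0.039 to 0.18 for Abcg1 (-0.039 without Null 1, -0.037 without ATF3 1), -0.15 to 0.0053 for Lcat, 0.29 to 0.54 for Lipc, 0.06 to 0.19 for Scarb1 and -0.77 to -0.42 for the Apom to Apoa1 ratio, and 851 to 1812 genes lower. The counts ran from 4 to 7 higher and 0 to 3 lower for HDL-carried proteins. They were 2 to 5 lower for the list of SR-BI adaptors and sterol handling, and 0 to 1 higher for lipase genes. Transcription factors ran from 2 to 6 higher and 2 to 4 lower, and LXR targets from 0 to 3 lower. At an adjusted p under 0.01, 0 HDL-carried genes were lower, and 1 gene (Gramd1c) was lower among SR-BI adaptors and sterol handling. At that threshold 0 lipase genes were higher and 1 lower, 2 transcription factor genes higher and 0 LXR targets lower. TPM rescaled by the median of ratios gave 5 transcription factor genes lower. With Alb as denominator the log2 ratios were -0.38 for Scarb1, a reversal, -1.57 for Apom and -0.15 for Lipc, also a reversal (exact permutation p = 0.0571, 0.0286 and 0.2). No paired analysis was possible because the labels give no replicate numbers shared between the groups. With 4 libraries a group, small differences such as that of Scarb1 are bounded only by their intervals.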
